A study of Mus musculus with 6 samples.

Results

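The RNA described here was read on the forward strand of the mouse mitochondrial chromosome (chrM, GRCm38), in the 5 stretches that lie outside every forward-strand gene and opposite the genes of the light strand. The rule that picks these stretches uses positions and gene annotation, and it was set with earlier results of these data known. They hold 1096 of the 1982 forward-strand positions that lie outside the 28 forward-strand genes, and they face all 9 light-strand genes, namely 8 tRNA genes and mt-Nd6. By the sample labels the RNA came from the islets of Langerhans, which hold the insulin-secreting cells of the pancreas. The design text speaks of pancreatic RNA instead, and the labels are followed here. Mice had received a high-fat diet for 14 weeks, and small RNA libraries were sequenced. There were 3 libraries of genotype Mrpp3WT (wild type) and 3 of genotype Mrpp3N434S (mutant), from 3 mice per genotype by the design text. Both genotypes had the same diet, so no group on another diet was compared. The series sets small RNA coverage of the mutant against that of the wild type. Age, sex and strain background were not stated by any source used here.

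The mammalian mitochondrial chromosome is transcribed on both strands into long precursors. The tRNA sequences within them are cut out, at the 5′ end by mitochondrial RNase P, of which MRPP3 is the nuclease subunit, and at the 3′ end by the nuclease ELAC2. Where a tRNA gene lies on the light strand, the transcript of the other strand runs through the same bases as an antisense copy that encodes no tRNA. Such antisense RNA is left over when the tRNAs and mRNAs on either side are released, and it is known to be broken down by the mitochondrial RNA degradation complex of the helicase SUV3 and the nuclease PNPase. Small RNA libraries show it as short pieces with free ends.

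The 5 stretches are named here by what precedes them. The stretch after the isoleucine tRNA mt-Ti (chrM:3775-3844, 70 bases) faces the glutamine tRNA mt-Tq and ends at the methionine tRNA mt-Tm. The stretch after the tryptophan tRNA mt-Tw (chrM:5017-5327, 311 bases) faces the tRNAs for alanine (mt-Ta), asparagine (mt-Tn), cysteine (mt-Tc) and tyrosine (mt-Ty) and the light-strand replication origin, and ends at mt-Co1, which encodes a catalytic subunit of respiratory complex IV. The stretch after mt-Co1 (chrM:6873-6941, 69 bases) faces the serine tRNA mt-Ts1 and ends at the aspartate tRNA mt-Td. The stretch after mt-Nd5 (chrM:13566-14144, 579 bases) faces mt-Nd6, which like mt-Nd5 encodes a subunit of complex I, and the glutamate tRNA mt-Te, and it ends at mt-Cytb, a complex III subunit. The stretch after the threonine tRNA mt-Tt (chrM:15356-15422, 67 bases) faces the proline tRNA mt-Tp and ends at the control region.

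The forward-strand sequences in which fragments began or ended sharply follow, read from the reference base of each position in the deposited files (GRCm38, forward strand, 5′ to 3′). In the first, the capital marks the base at which depth rose. In the second, capitals mark the base at which depth rose, the base at which many reads differed from the reference (base 40) and the last base before a fall in depth (base 44). In the third, they mark the base of a further rise and the last base before depth fell ahead of mt-Co1. In the fourth, they mark the first 3 bases after mt-Tt. The fifth is the replication origin, shown because forward depth ran through it. Its capitals are the 8-base arms of an inverted repeat around a loop of 13 bases.
after mt-Ti (chrM:3775-3844): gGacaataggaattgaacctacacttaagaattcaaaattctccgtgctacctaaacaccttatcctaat
after mt-Tw (chrM:5017-5086): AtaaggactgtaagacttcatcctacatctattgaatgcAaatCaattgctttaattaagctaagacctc
before mt-Co1 (chrM:5241-5327): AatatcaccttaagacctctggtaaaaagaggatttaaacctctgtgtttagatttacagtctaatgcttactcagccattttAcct
after mt-Tt (chrM:15356-15423): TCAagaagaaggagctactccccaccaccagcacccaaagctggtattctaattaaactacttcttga
between mt-Tn and mt-Tc (chrM:5160-5191): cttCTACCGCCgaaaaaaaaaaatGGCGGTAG

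The values are counts of each base on each strand at each position, so the depth of a position is the number of reads over it. The 3 wild-type libraries held 3156761 to 4337052 bases on both strands and the 3 mutant libraries 5461367 to 10923311. The excess of the mutant lay on the forward strand, at 5026986 to 10302401 against 2764211 to 3747204 bases. In the stretches themselves the order was the opposite, with 67783, 53369 and 74804 bases in wild-type replicates 1, 2 and 3, against 51822, 37047 and 35414 in mutant replicates 1, 2 and 3. Depth over both strands within the stretches reached at most 2674 reads in any library. Over the whole chromosome it reached 7436, 7756 and 7498 reads in the wild type, compared with 8000, 7998 and 7997 in the mutant. Whether counting was limited near 8000 reads was not tested. Totals, shares and scalings that hold such positions carry this doubt. The targeted nuclear gene and all markers of cell types lie outside counts of the mitochondrial chromosome, so neither the genotype nor the cell makeup of a library was checked. Fewer cells of a type and less RNA per cell cannot be told apart in such bulk samples.

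RNA opposite light-strand genes was deepest after mt-Ti and mt-Tw and least deep after mt-Co1 and mt-Nd5, with the stretch after mt-Tt between them in each of the 6 libraries except mutant replicate 3, where it was deeper than the stretch after mt-Tw. After mt-Ti the mean forward depth per base was 147, 108 and 147 reads in wild-type replicates 1, 2 and 3, against 101, 89.5 and 95.8 in mutant replicates 1, 2 and 3. After mt-Tw it was 160, 126 and 190 in the wild type, compared with 115, 77.7 and 62.7 in the mutant. In both stretches each mutant library was below each wild-type library before any scaling, although the mutant libraries were the deeper ones. With the scaling described below, 4 of 38 features (10.5%) had this order. After mt-Tt the mean depth was 68.8, 52.7 and 41.8 in the wild type, compared with 35.9, 43.2 and 77.3 in the mutant, so the genotypes overlapped and mutant replicate 3 was the highest of all 6 libraries.

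After mt-Co1 the mean depth was 6.81, 10.8 and 7.54 in the wild type, compared with 26.1, 10.2 and 9.71 in the mutant. Mutant replicate 1, which was also the deepest library, stood above the other 5. After mt-Nd5 it was 4.45, 4.24 and 3.64 in the wild type, compared with 8.15, 5.24 and 5.82 in the mutant, with every mutant library above every wild-type library before scaling. Unscaled depth of the genes around it, mt-Nd5, mt-Nd6 and mt-Cytb, was also higher in every mutant library. With the scaling described below the genotypes overlapped in this stretch. The values of the stretches after mt-Co1 and mt-Nd5 rest on few reads. Among the 33 forward-strand features (28 genes and 5 stretches), ranked by mean depth from the highest, the stretch after mt-Tw took places 8 to 16 over the 6 libraries and the stretch after mt-Ti places 10 to 16. The stretch after mt-Tt took places 13 to 24, the stretch after mt-Co1 places 26 to 30 and the stretch after mt-Nd5 places 31 to 33. The 2 deepest stretches overlapped in level. The median forward-strand gene had a mean depth of 52.8 reads.

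**Figure D1:**
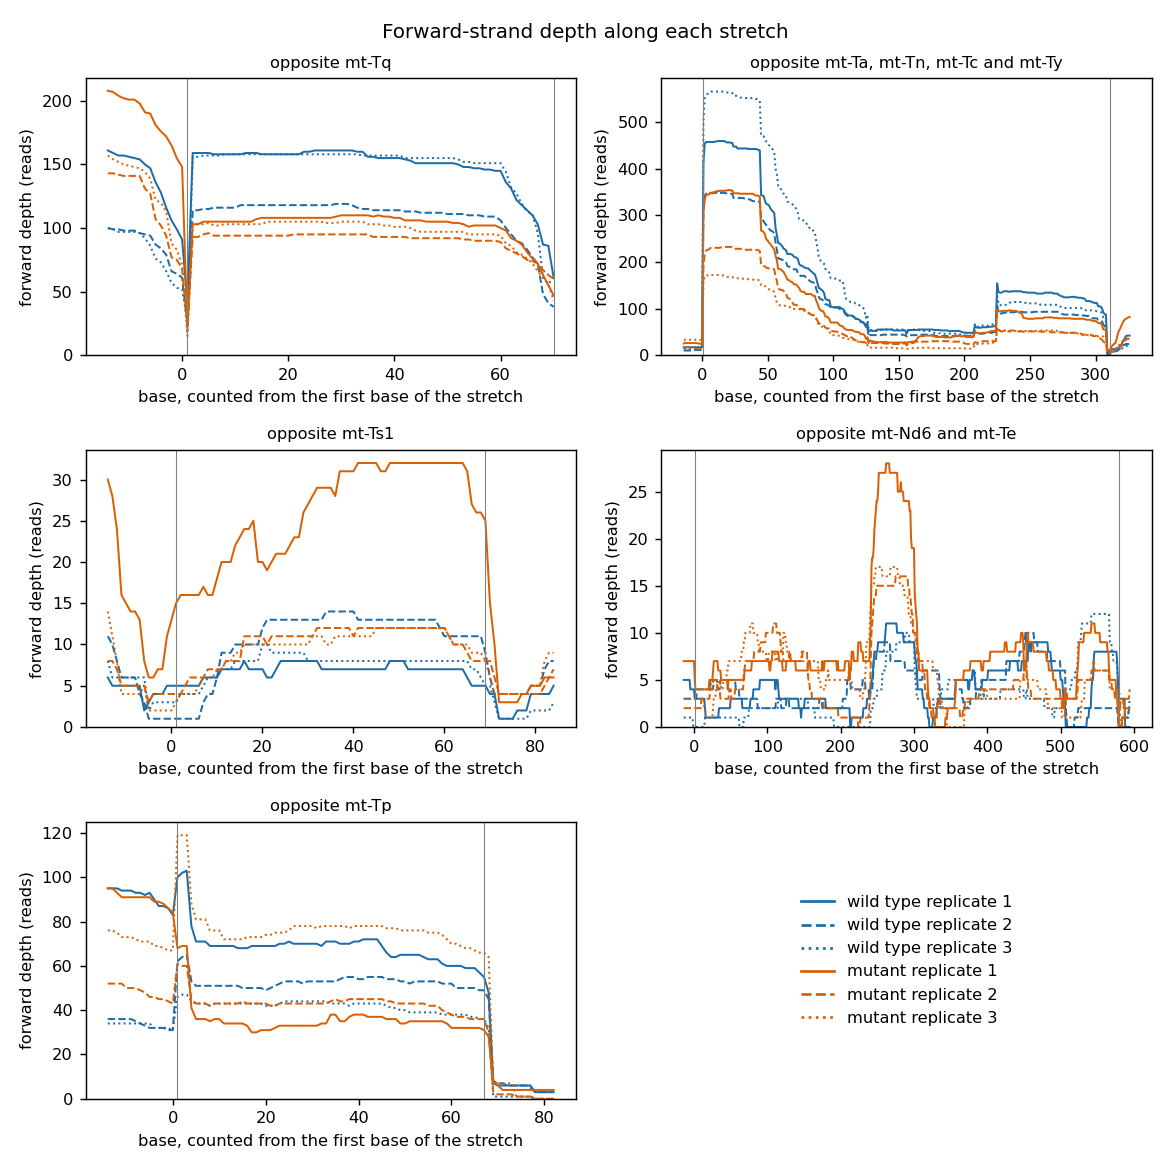
Forward-strand depth in reads (vertical axis) at each base of the 5 stretches, counted from the first base of the stretch (horizontal axis), with some bases on either side, for 3 wild-type (blue) and 3 mutant (orange) libraries; grey lines mark the first and last base of the stretch. The panel of the stretch after mt-Ti ends at its last base, because mt-Tm behind it is far deeper. The stretch after mt-Tw begins with a sharp rise to between 172 and 565 reads, falls in steps and rises again near its end, and the stretch after mt-Ti is a plateau of nearly constant depth.

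In the stretch after mt-Tw most reads began directly behind the tRNA. Depth rose at position 5017, the base after the end of mt-Tw, by 396, 301 and 489 reads in the wild type, compared with 282, 174 and 122 in the mutant. The rise was the largest of the stretch in 6 of 6 libraries, and the mutant libraries were all below the wild-type ones, as at several other steps given below. The highest depth of the stretch was 459, 348 and 565 reads in the wild type, compared with 354, 232 and 172 in the mutant, where mutant replicate 1 overlapped the wild type. Depth dropped below 50% of that maximum 61, 74 and 79 bases from the first base in the wild type, compared with 62, 68 and 85 in the mutant, so this length overlapped between the genotypes. A part of the fall came in a single step after base 44, of 96, 38 and 75 reads in the wild type, compared with 72, 29 and 9 in the mutant.

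Through the replication origin (chrM:5160-5191) forward depth did not reach 0. Its mean was 53.8, 43.5 and 53.6 reads in the wild type, compared with 32.5, 26.5 and 15.3 in the mutant. As a percent of the maximum of the stretch this was 11.7, 12.5 and 9.48 in the wild type, compared with 9.19, 11.4 and 8.90 in the mutant, so relative to the maximum the genotypes overlapped.

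A further set of fragments began inside the RNA opposite mt-Tc, at position 5241. The rise there was 93, 57 and 58 reads in the wild type, compared with 45, 30 and 31 in the mutant, with each mutant library below each wild-type one. As a percent of the rise at 5017 it was 23.5, 18.9 and 11.9 in the wild type, compared with 15.96, 17.2 and 25.4 in the mutant, which overlap. The depth then stayed up for 84 bases, across the RNA opposite mt-Ty, and fell at 5325 by 80, 51 and 68 reads in the wild type, compared with 44, 24 and 27 in the mutant, just ahead of mt-Co1. The third sequence above begins with the first base of this piece and runs on to mt-Co1. Smaller steps in the mutant were not particular to 5017 and 5241. In reads, the steps at 3776, 3842, 5072 and 5325 were also smaller in each mutant library than in each wild-type library. The rise at 13807, opposite mt-Nd6, was larger in each mutant library.

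After mt-Ti the RNA formed a single block that began near the first base of the stretch. Depth was lowest at the first base behind mt-Ti, at 41, 24 and 27 reads in the wild type, compared with 20, 23 and 15 in the mutant. It rose at 3776 by 118, 90 and 129 reads in the wild type, compared with 83, 70 and 88 in the mutant. This was the largest rise inside the stretch in 6 of 6 libraries. From there it stayed nearly level up to about the last 10 bases of the stretch. At position 3845, the first base of mt-Tm, depth rose by 2152, 933 and 1341 reads in the wild type, compared with 1378, 900 and 887 in the mutant. The RNA opposite mt-Tq was thus far less deep than the tRNA that follows it. The mean over its last 10 bases divided by the mean over the next 10 bases was 0.0486, 0.0762 and 0.0744 in the wild type, compared with 0.0539, 0.0785 and 0.0781 in the mutant, with overlapping genotypes.

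At 15356, the first base after mt-Tt, depth changed by 17, 31 and 15 reads in the wild type, compared with -16, 18 and 52 in the mutant. The mean over the first 10 bases divided by that over the last 10 bases of mt-Tt was 0.894, 1.68 and 1.34 in the wild type. In the mutant it was 0.519, 1.04 and 1.31, with overlap. Depth stayed nearly level over the RNA opposite mt-Tp, apart from its first 3 bases. It fell at 15424, the second base of the control region, by 41, 37 and 31 reads in the wild type, compared with 20, 27 and 57 in the mutant. The stretches after mt-Co1 and mt-Nd5 had no sharp rise. The steepest rise between neighbouring bases was 1 to 3 reads after mt-Co1 and 2 to 6 reads after mt-Nd5. After mt-Co1 depth dropped below 50% of its maximum at 6942 to 6944 in all 6 libraries, at the first bases of mt-Td. The fall at 6942 was 10 reads in mutant replicate 1 and at most 3 in the other libraries. Opposite mt-Nd6 the reads made a low hump over the middle of the gene that reached 28 reads in mutant replicate 1.

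The mutant had less RNA after mt-Ti and after mt-Tw relative to the mitochondrial genes. Changes were tested on mean depths scaled by the TMM method (trimmed mean of M values) over the 37 mitochondrial genes, with edgeR's quasi-likelihood test, over 38 genes and stretches with a mean depth of at least 10. Of these 8 changed at an adjusted p under 0.05, which is 21.1% of the table, and 3 of them were lower in the mutant (7.89%). Of the 5 stretches 4 passed the filter on depth and 2 fell. With no filter all 5 were tested, again 2 fell, and their median log2 change was -0.47 beside 0.07 over all 42 features.

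After mt-Tw the scaled depth was 142, 166 and 264 in the wild type, compared with 70.6, 85.4 and 57.3 in the mutant. All mutant libraries lay below all wild-type libraries, with means of 191 ± 64.3 and 71.1 ± 14.0 (SD, n = 3). The fitted log2 change was -1.42 (SE 0.27, 95% interval -2.00 to -0.83, edgeR adjusted p = 0.00556), which is 2.67-fold lower. After mt-Ti the scaled depth was 130, 142 and 203 in the wild type, compared with 61.6, 98.3 and 87.6 in the mutant. The genotypes did not overlap there either, with means of 159 ± 39.2 and 82.5 ± 18.9 (SD, n = 3). The fitted log2 change was -0.95 (SE 0.26, 95% interval -1.51 to -0.40, edgeR adjusted p = 0.0267), which is 1.93-fold lower. Normalised depth of all mutant libraries below all wild-type libraries was found in 10.5% of the 38 features.

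The call after mt-Ti was lost without wild-type replicate 1 (edgeR adjusted p = 0.133), wild-type replicate 3 (0.112), mutant replicate 1 (0.0899) or mutant replicate 3 (0.0533), and with scaling to the tRNA genes (log2 -0.67, edgeR adjusted p = 0.0646). The call after mt-Tw was lost only without mutant replicate 1, among the left-out libraries and other settings run (log2 -1.41, edgeR adjusted p = 0.0799). Without that library no feature of the table was called, and 9 had an unadjusted p under 0.05.

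The other 3 stretches did not pass. After mt-Tt the scaled depth was 61.0, 69.6 and 58.0 in the wild type, compared with 22.0, 47.5 and 70.7 in the mutant (log2 -0.47, 95% interval -1.18 to 0.24, edgeR adjusted p = 0.354). The mutant libraries spread more widely than the wild-type ones and enclosed them. The log2 change after mt-Tt was -0.088 without mutant replicate 1 and -0.87 without mutant replicate 3, and it ran from -1.17 to -0.17 over the other settings. After mt-Co1 the scaled depth was 6.04, 14.2 and 10.5 in the wild type, compared with 15.97, 11.2 and 8.88 in the mutant (log2 0.29, 95% interval -0.34 to 0.91, edgeR adjusted p = 0.505), and the sign of this difference turned under 4 other scalings. After mt-Nd5 it was 3.95, 5.61 and 5.05 in the wild type, compared with 4.99, 5.76 and 5.33 in the mutant (log2 0.17, 95% interval -0.57 to 0.92, edgeR adjusted p = 0.840 with no filter). With TMM scaling the interval after mt-Tt holds a change of the size found after mt-Ti, and those after mt-Co1 and mt-Nd5 do not.

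**Figure D2:**
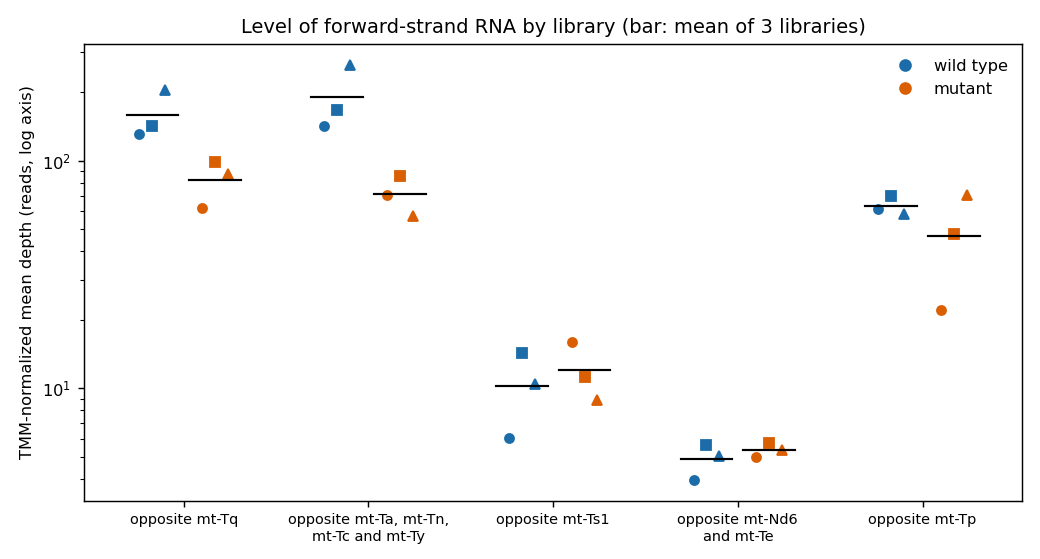
TMM-normalised mean forward depth in reads (vertical axis, log scale) of the 5 stretches (horizontal axis), one point per library and a bar for the mean of 3 libraries; wild type in blue, mutant in orange. Opposite mt-Tq the mutant libraries sit between 61.6 and 98.3 and the wild-type ones between 130 and 203, and opposite mt-Ta, mt-Tn, mt-Tc and mt-Ty between 57.3 and 85.4 and between 142 and 264, while the other 3 stretches overlap.

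Each segment of the stretch after mt-Tw fell. The stretch was divided into the RNA opposite each light-strand gene and the replication origin, and fitted in a table of 42 features, of which 13 changed (31%) and 7 were lower in the mutant (16.7%). The 10 segments of the 5 stretches included 8 that passed the filter, and 6 of them fell. Opposite mt-Ta, scaled depth was 339, 396 and 687 in the wild type, compared with 180, 221 and 137 in the mutant, with no overlap (log2 -1.40, SE 0.29, edgeR adjusted p = 0.00258). Opposite mt-Tn it was 94.3, 127 and 211 in the wild type, compared with 43.1, 55.8 and 42.1 in the mutant, again with no overlap (log2 -1.61, SE 0.30, edgeR adjusted p = 0.00151).

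The replication origin had 47.7, 57.5 and 74.3 in the wild type, compared with 19.9, 29.2 and 14.0 in the mutant (log2 -1.51, SE 0.28, edgeR adjusted p = 0.00151). Opposite mt-Tc the values were 67.2, 74.0 and 93.0 against 34.5, 38.2 and 25.0 (log2 -1.26, SE 0.24, edgeR adjusted p = 0.00151). Opposite mt-Ty they were 107, 111 and 138 against 45.7, 49.6 and 42.7 (log2 -1.35, SE 0.22, edgeR adjusted p = 0.00138). In each of these 3 segments too the genotypes stood apart, and in 19% of the 42 features all mutant libraries lay below all wild-type ones. The RNA opposite mt-Tq fell by 0.96 on the log2 scale (edgeR adjusted p = 0.0156). Without mutant replicate 1 only the segments opposite mt-Tc (adjusted p = 0.0376) and mt-Ty (adjusted p = 0.0155) of the 7 then tested by edgeR passed, while the log2 changes of the 3 other segments after mt-Tw were -1.40, -1.54 and -1.48. These segments share fragments that cross their borders, so they are not separate measurements.

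**Figure D3:**
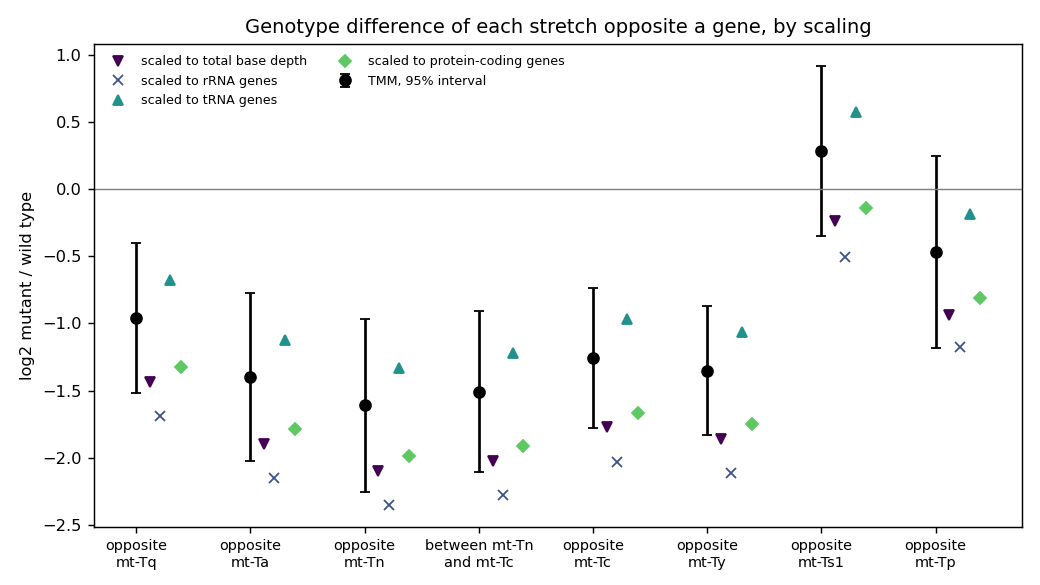
Log2 ratio of mutant to wild-type depth (vertical axis) for the 8 tested segments (horizontal axis); black points with bars are the edgeR estimate with TMM scaling and its 95% interval, and the other symbols are the estimates under 4 other scalings. The 5 segments after mt-Tw lie between -1.61 and -1.26 with TMM scaling and stay below 0 under the scalings plotted, whereas the estimate opposite mt-Ts1 lies on either side of 0.

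The scale itself moves these values. The median log2 change of all 38 features was 0.06 with TMM scaling, -0.44 with scaling to total depth, -0.53 to forward-strand depth, -0.70 to the rRNA genes, -0.33 to the protein-coding genes and 0.36 to the tRNA genes. The table had 5 higher and 3 lower calls with TMM scaling, 0 higher and 18 lower with rRNA scaling, 1 higher and 7 lower with protein-coding scaling and 12 higher and 1 lower with tRNA scaling. With scaling to total depth the split was 1 and 10, with forward-strand scaling 1 and 14, and with the size factors of DESeq2 1 and 3. Over these settings the log2 change after mt-Tw ran from -2.17 to -1.14 and after mt-Ti from -1.68 to -0.67. Each of these values was below the median of its own table.

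Among the forward-strand genes beside the stretches, mt-Co1 rose and mt-Tm fell with TMM scaling. The tRNA mt-Tw had a log2 change of 0.20 (95% interval -0.31 to 0.72, edgeR adjusted p = 0.689), and mt-Co1 rose by 0.88 (SE 0.26, edgeR adjusted p = 0.0285). Beside the stretch after mt-Ti, mt-Ti had a log2 change of 0.07 (95% interval -0.38 to 0.52, edgeR adjusted p = 0.831) and mt-Tm fell by 0.80 on the log2 scale (SE 0.22, edgeR adjusted p = 0.0267). Both kept their sign under every other scaling run. The rise of mt-Co1 passed in only 6 of 14 settings that kept all libraries, with a log2 change from 0.09 (rRNA scaling, edgeR adjusted p = 0.730) to 1.18 (tRNA scaling), and it did not pass by DESeq2 (adjusted p = 0.102). The fall of mt-Tm passed in 12 of 14 settings and did not pass with tRNA scaling (log2 -0.50, edgeR adjusted p = 0.0981). The remaining neighbours with enough depth did not pass the test, with log2 changes of 0.60 for mt-Nd5 (edgeR adjusted p = 0.107), 0.52 for mt-Cytb (edgeR adjusted p = 0.122) and -0.15 for mt-Tt (edgeR adjusted p = 0.689).

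The edge of the stretch after mt-Tw had a lower ratio of depths in the mutant. Mean depth over its first 10 bases divided by that over the last 10 bases of mt-Tw was 26.6, 31.2 and 42.7 in the wild type, compared with 13.4, 15.6 and 5.14 in the mutant. The last 10 bases of mt-Tw had a depth of 17, 11 and 13 in the wild type, compared with 25.4, 14.3 and 33.0 in the mutant. At the other end, depth over the last 10 bases divided by that over the first 10 bases of mt-Co1 was 4.07, 4.33 and 5.79 in the wild type, compared with 1.13, 1.73 and 1.63 in the mutant. The genotypes did not overlap at either edge.

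After mt-Ti the same ratio to the tRNA in front was 1.14, 1.29 and 1.93 in the wild type, compared with 0.541, 0.818 and 0.801 in the mutant. After mt-Co1 it was 1.29, 0.920 and 1.12 in the wild type, compared with 1.64, 1.35 and 1.69 in the mutant, and here the mutant was the higher without overlap. With windows of 5 bases these last libraries overlapped, and with 20 bases the difference turned to -0.00993. Of the 10 edge ratios 4 (40%) separated the genotypes. By the exact two-sided permutation test each of the 4 had p = 0.1 (adjusted 0.25 over 10 ratios), and 0.1 is the smallest p that 3 against 3 libraries allow, so none could pass the threshold.

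As a share of all forward-strand depth, the 5 stretches together held 1.81%, 1.75% and 2.71% in the wild type, compared with 0.503%, 0.737% and 0.648% in the mutant. The genotypes did not overlap, with means of 2.09% ± 0.536 and 0.629% ± 0.118 (SD, n = 3), and p was 0.1 by the exact two-sided permutation test (adjusted 0.12 over 6 shares). Of the 5 stretches 4 (80%) had a lower share in each mutant library, against 16 of all 33 forward-strand features (48.5%). This count depends on the denominator. Outside the rRNA genes the difference after mt-Nd5 turned to 0.0201 percentage points and that after mt-Tt had an exact permutation p of 0.5. The stretch after mt-Tw made up most of it, at 1.33%, 1.28% and 2.14% in the wild type, compared with 0.348%, 0.481% and 0.357% in the mutant. Of forward depth outside forward-strand genes, the 5 stretches held 95.7%, 96.1% and 96.9% in the wild type, compared with 87.0%, 94.0% and 92.3% in the mutant.

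Compared with the light-strand gene that it faces, antisense RNA had the more reads in some tRNAs and a small fraction of them in others. The ratio of forward to reverse mean depth was taken within each library, which needs no scaling between libraries. It compares reads of short pieces and does not measure the amount of whole tRNA. Of the 37 mitochondrial genes 7 had an opposite-strand depth of at least 10 reads on average, and all 7 were light-strand genes. The forward-strand gene mt-Tw fell just short of this cutoff, at 9.98 reads on average and a ratio of 0.245 to 1.12. Of the 7 genes, 3 had a changed ratio by edgeR (42.9%), each lower in the mutant. In mt-Ty the ratio was 2.10, 2.92 and 2.57 in the wild type, compared with 0.973, 1.46 and 0.976 in the mutant, so that antisense reads outnumbered sense reads in all wild-type libraries and in mutant replicate 2 (log2 -1.16, SE 0.38, edgeR adjusted p = 0.0383). In mt-Tc it was 0.284, 0.323 and 0.509 against 0.133, 0.205 and 0.133, also without overlap (log2 -1.23, SE 0.36, edgeR adjusted p = 0.0383).

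In mt-Tn the ratio was 0.332, 0.542 and 0.741 in the wild type, compared with 0.208, 0.234 and 0.309 in the mutant, and the genotypes did not overlap (log2 -1.06, SE 0.37, edgeR adjusted p = 0.0383). In mt-Ta, where antisense reads were the majority in every library, it was 2.06, 2.50 and 4.53 against 1.34, 1.83 and 1.503, which did not overlap but did not pass the test (log2 -0.89, SE 0.38, edgeR adjusted p = 0.0694). Without wild-type replicate 3 its log2 change was -0.56 (edgeR adjusted p = 0.255), and without wild-type replicate 1 it was -1.13 (edgeR adjusted p = 0.0484). The 4 tRNAs facing the stretch after mt-Tw were the 4 of 7 (57.1%) whose libraries separated in this way. At less opposite-strand depth (2.27 to 4.24 reads) the ratio of mt-Co1, which follows the stretch, separated too. It was 0.0810, 0.106 and 0.0925 in the wild type, compared with 0.0182, 0.0474 and 0.0319 in the mutant. In mt-Tw, which precedes the stretch, the genotypes overlapped. Among 24 genes with an opposite-strand mean of at least 1, 0 passed by edgeR. Their median log2 change was -0.52, beside -0.89 for the 9 light-strand genes. The 3 calls rest on the model and on single libraries. By limma on log2 ratios and by DESeq2 0 of 7 passed, and 3 had an unadjusted p under 0.05 in each. With edgeR 0 remained without wild-type replicate 2, without wild-type replicate 3 or without mutant replicate 1, and 1 was called without mutant replicate 3.

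In mt-Tp the ratio was 1.82, 1.55 and 2.36 in the wild type, compared with 0.220, 1.11 and 1.99 in the mutant, with mutant replicate 1 far below the other 5 (log2 -1.24, 95% interval -2.90 to 0.42, edgeR adjusted p = 0.176). Without mutant replicate 1 the log2 change was -0.30 (edgeR adjusted p = 0.527), and without mutant replicate 3 it was -1.96 (edgeR adjusted p = 0.0228). In mt-Tq it was 0.1003, 0.148 and 0.183 against 0.0507, 0.105 and 0.158, with overlap (log2 -0.56, 95% interval -1.84 to 0.71, edgeR adjusted p = 0.403), and leaving out a library moved this change from -0.94 to -0.11. In mt-Ts1 it was 0.0655, 0.177 and 0.153 against 0.159, 0.176 and 0.159 (log2 0.38, 95% interval -0.73 to 1.49, edgeR adjusted p = 0.460). The intervals of mt-Tp and mt-Tq hold changes of the size found in mt-Tc and mt-Ty.

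The other 2 genes had too little antisense depth for that test. In mt-Nd6 the ratio was 0.330, 0.343 and 0.230 in the wild type, compared with 0.244, 0.373 and 0.308 in the mutant, and in mt-Te it was 0.00660, 0.00557 and 0.0291 against 0.0108, 0.0137 and 0.0112. Antisense reads of mt-Te were thus a small fraction of its sense reads in each library, and the genotypes overlapped in both genes. The sense genes themselves did not pass the level test. Their log2 changes were -0.18 for mt-Ty, -0.03 for mt-Tc, -0.46 for mt-Tn, -0.45 for mt-Ta, -0.32 for mt-Tq, -0.12 for mt-Ts1, -0.29 for mt-Te, 0.28 for mt-Nd6 and 0.82 for mt-Tp, with edgeR adjusted p from 0.110 to 0.907. The scaled depth of sense mt-Ta was still lower in each mutant library, at 164, 159 and 151 in the wild type, compared with 135, 121 and 91.2 in the mutant. That of the other sense genes overlapped.

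**Figure D4:**
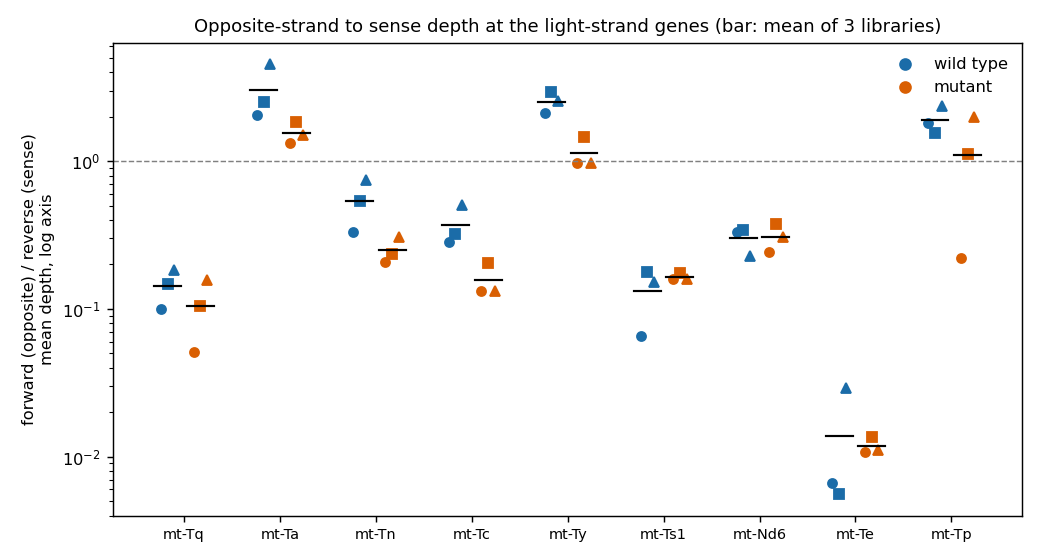
Ratio of forward (opposite-strand) to reverse (sense) mean depth (vertical axis, log scale) at the 9 light-strand genes (horizontal axis), one point per library and a bar for the mean of 3 libraries; wild type in blue, mutant in orange, with the dashed line at equal depth. The mutant libraries lie below the wild-type ones in mt-Ta, mt-Tn, mt-Tc and mt-Ty, and the genotypes overlap in the other 5 genes.

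Bases that differ from the reference were rare in the stretches except at a few sites. Over a whole stretch, 0.143% to 1.91% of bases differed in any one library, against 0.288% to 0.332% over the forward-strand genes. The site with the highest share of differing reads at good depth was position 5056, base 40 of the stretch after mt-Tw, where the change was A40C (positions counted from 1 at the first base of the stretch). The share of differing bases was 21.3% (exact Clopper-Pearson 95% interval 17.5% to 25.4%), 12.7% (9.33% to 16.8%) and 12.9% (10.2% to 16.003%) in wild-type replicates 1, 2 and 3. In mutant replicates 1, 2 and 3 it was 21.3% (17.1% to 26.0%), 11.9% (8.02% to 16.9%) and 5.59% (2.59% to 10.3%). Depth at the site was 161 to 550 reads, and the intervals cover counting error only.

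The genotypes overlapped at that site. The log2 difference in odds was -0.34 (95% interval -1.53 to 0.85, edgeR adjusted p = 0.543), and of 5 forward-strand sites tested 0 passed (0%), with 0 at an unadjusted p under 0.05 as well. Reads with C numbered 91, 37 and 70 in the wild type, compared with 71, 26 and 8 in the mutant. The fall in depth after base 44, given above, was 96, 38 and 75 reads in the wild type, compared with 72, 29 and 9 in the mutant. The 2 counts were thus close in each library, with sums over the 6 libraries of 303 and 319. Counts per position do not show whether the same reads carried the C and ended at base 44, and this was not tested. On the reverse strand 8 of 1045 reads differed from the reference at this position.

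A similar pairing was seen at the first base after mt-Tt. The reference has TCA there, as the capitals in the fourth sequence show, whereas tRNAs receive an added CCA at their 3′ end. The change T1C, counted from 1 at the first base of the stretch, was present in 34, 14 and 5 reads in the wild type, compared with 35, 18 and 46 in the mutant, at a depth of 46 to 119 reads. The share of differing bases was 34.0%, 22.6% and 10.9% in the wild type, compared with 52.9%, 29.5% and 38.7% in the mutant, with overlap. Depth fell after base 3 by 25, 12 and 3 reads in the wild type, compared with 28, 15 and 31 in the mutant. Because wild-type replicate 3 had a depth under 50, the site was tested only with a minimum depth of 20 (log2 difference in odds 1.16, 95% interval -0.25 to 2.58, edgeR adjusted p = 0.603). Whether these reads belong to mt-Tt with its added end was not tested. Over the 6 libraries the reads with C summed to 152 and the fall after base 3 to 114. Counts per position do not show where the reads with C ended. Their part in the level of the stretch after mt-Tt was thus not tested. On the reverse strand 0 of 255 reads differed at this position.

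**Figure D5:**
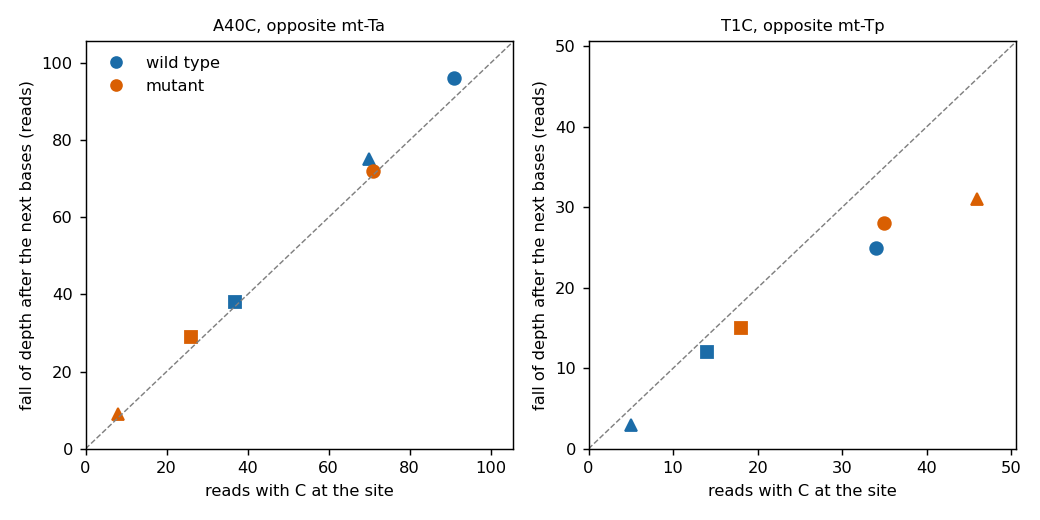
Reads with C at the site (horizontal axis, reads) against the fall in forward depth after the next bases (vertical axis, reads) for A40C in the stretch after mt-Tw (left; fall after base 44) and T1C in the stretch after mt-Tt (right; fall after base 3), one point per library, wild type in blue and mutant in orange; the dashed line marks equal numbers. The left points lie along the line from 8 to 91 reads, and the right ones lie below it.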

How the data were processed

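The deposited values are unscaled counts of each base (A, C, G, T or N) on each strand at every mitochondrial position, per the file headers. Libraries followed the Illumina TruSeq small RNA protocol, per the labels' protocols. The submitters' processing notes name STAR, cutadapt, Trim Galore and FastQC, with the build GRCm38.p6. Read length, base counter and treatment of reads that match nuclear copies were not given in the sources used here. Small RNA libraries join adapters to free ends, so levels reflect short pieces. Another deposited table has 16 columns of per-sample values that could not be assigned to samples and was not used.

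Genes came from GENCODE vM21. Mean depth per feature was rounded and fitted with edgeR 4.0.16 (R 4.3.3; TMM factors from the 37 genes, mean of at least 10, Benjamini-Hochberg over the whole table, threshold 0.05). Ratios and mismatches (depth of at least 50 in every library, mean mismatch of at least 5%) had an effect for each library. Segments had at least 10 bases. Shares and edge ratios had exact permutation tests. The models were also run on simulated independent counts with a fixed dispersion. Mean depths of features that share fragments need not behave like such counts, so the simulation does not vouch for the calls. Alternatives were limma 3.58.1 (0.5 added), DESeq2 1.42.0, other scalings, filters and windows, a replicate block, leaving out each library, and, added after the data were seen, leaving out positions above a depth of 6000. The stretches, tests and gene lists were chosen with earlier results of these data known. All 5 stretches, their segments, facing and neighbouring genes, up to 3 largest steps per direction and tested mismatch sites were to be named; the T1C site and the hump opposite mt-Nd6 were added after their values were seen. Between pairs of libraries the chi-square per degree of freedom was at least 3.34. It was taken on rounded mean depths, which are not read counts, so it does not measure departure from counting noise.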

Additional observations from a re-analysis of the deposited data

How the results depend on the processing

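Among the 5 stretches, the count of those called lower was 2 in every alternative that kept all 6 libraries except scaling to the tRNA genes, where it was 1, and ranged from 0 to 2 when a library was left out. Leaving out a library moved the log2 change after mt-Tw from -1.56 to -1.11 and after mt-Ti from -1.09 to -0.74, and the latter was -0.67 with tRNA scaling. For the stretch after mt-Co1, opposite mt-Ts1, the sign turned with scaling to total depth (-0.24), forward depth (-0.33), rRNA genes (-0.50) and protein-coding genes (-0.14), and leaving out a library gave -0.012 to 0.58. The count of segments called lower was 2 to 6 with a library left out. The count of changed antisense to sense ratios was 0 by limma, by DESeq2 and with an opposite-strand mean of at least 1, 2 with maximum depths, and 0 to 4 with a library left out, where mt-Ts1 ran from -0.062 to 0.67. The log2 odds at position 5056 ran from -0.90 to 0.13.

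Differences in share (mutant minus wild type, percentage points) turned sign outside the rRNA genes for the stretches after mt-Co1 (0.00929) and mt-Nd5 (0.0201). Outside forward-strand genes they turned for those after mt-Ti (1.28), mt-Co1 (1.29), mt-Nd5 (4.54) and mt-Tt (2.79). Edge ratios turned sign with windows of 5 bases at the end of the stretch after mt-Co1 (-0.0599), and with windows of 20 bases at its begin (-0.00993) and at the ends after mt-Ti (-0.00197), mt-Nd5 (-0.830) and mt-Tt (0.701). With a library left out they ran from -0.00513 to 0.0119 at the end after mt-Ti, -1.03 to 0.730 after mt-Co1, -0.900 to 1.84 after mt-Nd5 and -0.933 to 1.197 after mt-Tt, and from -0.0790 to 0.538 at the begin after mt-Nd5.

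No pairing of the libraries by replicate number was seen (correlations of -0.027, -0.245 and 0.093 over 38 features, and 1 library correlated best with its own number). With 3 libraries per genotype this check cannot exclude a pairing. With the replicate block 2 stretches, 6 segments and 3 ratios were called, as without it, and 7 against 8 features of the table, in which mt-Tm was no longer called (edgeR adjusted p = 0.0625).

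Depth limits the stretches after mt-Co1 and mt-Nd5, where mean depth was 3.64 to 26.1 reads, and read ends were inferred from changes of depth.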
